A study of Homo sapiens with 48 samples.

Results

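CRISPRko control fibroblasts were compared after 24 h with TGFβ and IL-1β and at 0 h, in 6 of the 48 libraries of the series, 3 at each time. The libraries were grouped by their labels, and the comparison was chosen with earlier results of these data known. The cells are CRL-4001, an immortalized human skin fibroblast line whose IL11 gene carries mNeonGreen, joined by a self-cleaving peptide, at its stop codon as a reporter, and they express Cas9 and a non-targeting lentiviral guide. Their genotype label reads WT, although the cell line label shared by all samples of the arm also reads KO for GLIS3. They were kept as a puromycin- and blasticidin-selected bulk population in DMEM with 10% FBS, and the cytokines (10 ng per ml each) were added in a reverse time course, so that all wells were collected together. Both groups carry the same reporter, nuclease and guide and differ in the cytokines. GLIS3 CRISPRko fibroblasts carry a guide to GLIS3 in place of the control guide. The activation arm carries dCas9–VP64, a catalytically inactive Cas9 joined to a transcriptional activator, and its groups are called by their descriptions, VP64_Ctrl and VP64_A, because their titles name the opposite groups. The labels do not say whether the 3 libraries of a group came from separate cultures, so p-values measure the spread between these libraries, which may be technical. The reporter cells came from sorted single-cell clones, whose number the paper does not give. This limits the cells as a model of skin fibroblasts in general.

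IL-1β binds its receptor on fibroblasts and, through MYD88 and the IRAK kinases, activates NF-κB and the AP-1 factors, which switch on chemokines, IL-6 family cytokines, proteases and their own inhibitors. TGFβ acts through a receptor kinase and the SMAD factors and is known for inducing collagens, matrix glycoproteins and contractile proteins in fibroblasts. Many targets of IL-1β are transcribed within hours and then decline as inhibitors such as IκBα and A20 accumulate. RNA levels after a day of exposure can hold both changes that lasted and changes that began late.

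Estimated counts of the 6 libraries summed to between 2485059 and 6750532, and the 24 h replicate 2 library was the shallowest. All 9 fibroblast markers examined had at least 10 counts, with a summed level of 26367 to 29014 TPM (a length-corrected share of the library's transcripts) at 0 h and 27513 to 30394 TPM at 24 h. The epithelial markers EPCAM, KRT5 and ESRP1 and the immune markers LYZ, CD3E and MS4A1 were listed at 0 in all 6 libraries. The 6 epithelial markers summed to at most 1.56 TPM, the 4 melanocyte markers to at most 0.636 TPM and the 6 endothelial markers to at most 1.48 TPM, with CDH5 and KDR at 0. The 8 immune markers summed to between 16.8 and 23.6 TPM, of which only CD68 had at least 10 counts. Smooth muscle and pericyte markers summed to 8.99 to 15.1 TPM at 0 h and 15.7 to 23 TPM at 24 h, with MCAM at 0 in all 6 libraries. RNA was measured from whole wells, so a lower level in a share of the cells and a lower level in all cells cannot be told apart.

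After 24 h, 1125 of 10962 genes tested differed from 0 h at an adjusted p under 0.05 (edgeR quasi-likelihood test, two-sided, Benjamini-Hochberg adjustment), which is 10.3% of genes tested. Of these, 716 were higher (6.53%) and 409 were lower (3.73%). These shares are the background for every count of called list members given below. The median log2 fold change of all genes tested was 0.01, that of the genes called higher was 1.09, and that of the genes called lower was -0.98. A rise of at least 1 on the log2 scale was reached by 384 called genes and a fall of that size by 198. At 3 the counts were 82 and 16, and at 5 they were 42 and 2, so the largest changes were mostly rises. The 3 libraries of 1 time did not overlap those of the other for 1757 higher genes (16% of genes tested) and 1480 lower genes (13.5%), and for 706 of the 716 genes called higher and 405 of the 409 called lower. On the log2 TPM scale, where the median of all genes moved by -0.17 with a pseudocount of 1 and by -0.22 with 0.1, limma called 637 and 640 genes, of which 277 and 290 were higher, so the split between higher and lower calls depends on the scale. These fits shared 545 and 549 of the 1125 calls, in that order.

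**Figure D1:**
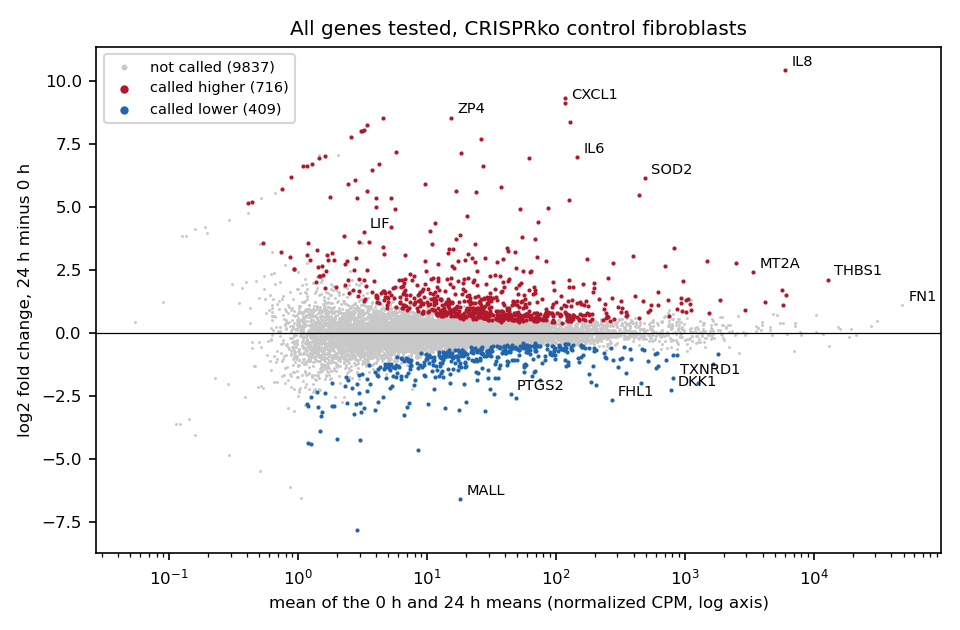
Each point is 1 of the 10962 genes tested, with the mean of its 0 h and 24 h normalized CPM on a log axis (horizontal) and its log2 fold change at 24 h against 0 h (vertical). Red points are the 716 genes called higher and blue points the 409 called lower at an edgeR adjusted p under 0.05, and the points above 5 on the vertical axis include IL8, CXCL1, ZP4, IL6 and SOD2 at very different levels.

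The makeup of the RNA moved with these genes. The genes called higher held 4.83% ± 0.375 (SD, n = 3) of all TPM at 0 h and 14.5% ± 0.265 (SD, n = 3) at 24 h, and the genes called lower fell from 3.03% ± 0.0300 to 1.28% ± 0.0656 (SD, n = 3), as a description of genes chosen by this same contrast. The 50 most abundant genes of a library took 39.7% ± 0.208 (SD, n = 3) of its counts at 0 h and 45% ± 1.23 (SD, n = 3) at 24 h. MT2A, a metallothionein that binds zinc and copper, went from 8482 to 42145 TPM and from rank 17 to rank 1 of all genes. IL8, the neutrophil chemokine now named CXCL8, went from 9.21 to 11021 TPM and stood at rank 15 at 24 h, between tropomyosin TPM1 at 11185 TPM and tubulin TUBA1B at 9346 TPM.

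Chemokines that attract neutrophils were among the largest rises. Of 22 chemokine genes examined 12 had enough counts to be tested, 9 were called higher and none lower, and the median log2 fold change of the 12 was 5.99 against 0.01 for all genes tested, or 5.29 over 11 genes with members at 0 counts at 0 h set to their lower bounds and CCL20 left out. IL8 (chromosome 4, 73740519 to 73743716, plus strand, GRCh38) was at 14.3, 3.22 and 8.10 normalized CPM (counts scaled to the library's TMM-scaled total) at 0 h and at 12647, 11726 and 11523 at 24 h. Every 24 h library was far above the highest 0 h library. Its log2 fold change was 10.43 ± 0.71 (SE; edgeR adjusted p = 4.14e-13). CXCL1 (chromosome 4, 73869393 to 73871308, plus strand), another ligand of the neutrophil receptor CXCR2, was at 0.540, 0.483 and 0 CPM and then at 218, 276 and 211 CPM, a log2 fold change of 9.11 ± 0.46 (edgeR adjusted p = 2.89e-16). CXCL2 rose by 7.12 ± 0.55 and CXCL3 by 6.62 ± 0.41 on the log2 scale, with 24 h values of 23.4 to 48.1 CPM and 51.4 to 58.4 CPM. CXCL2 rested on 4 counts in all at 0 h, against 385 at 24 h. CXCL5 and CXCL6 had 0 counts in all 3 libraries at 0 h and 74 and 75 counts over the 3 libraries at 24 h, which is at least 36.8-fold and 37.3-fold higher against a floor of 3 counts over the group, and their 95% counting limits begin at 29.2-fold and 29.6-fold. Floors and intervals cover counting error only. CXCL1, CXCL2 and CXCL3, and likewise CXCL5 and CXCL6, are close copies of each other, so the share of reads that Salmon gave to each is uncertain.

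The monocyte and lymphocyte attractants CCL2 (5.29) and CCL5 (5.36) also rose (log2 fold changes), and CCL2 went from 6.23 ± 1.53 to 245 ± 33.7 CPM (SD, n = 3). CCL7 was also called higher, on 0 counts at 0 h and 10 at 24 h over the 3 libraries, which is at least 4.98-fold against the same floor. CXCL12, a homeostatic chemokine of fibroblasts, had a log2 fold change of -0.68 and CXCL16 of -0.58, and neither passed the test. CCL20 had 0 counts in all 6 libraries and entered the test only through other groups of the arm, so it gives no measure of change. The chemokines that rose were therefore found in both the CXC and the CC families, and the 10 members left untested, among them CXCL9, CXCL10 and CXCL11, had too few counts in the arm.

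**Figure D2:**
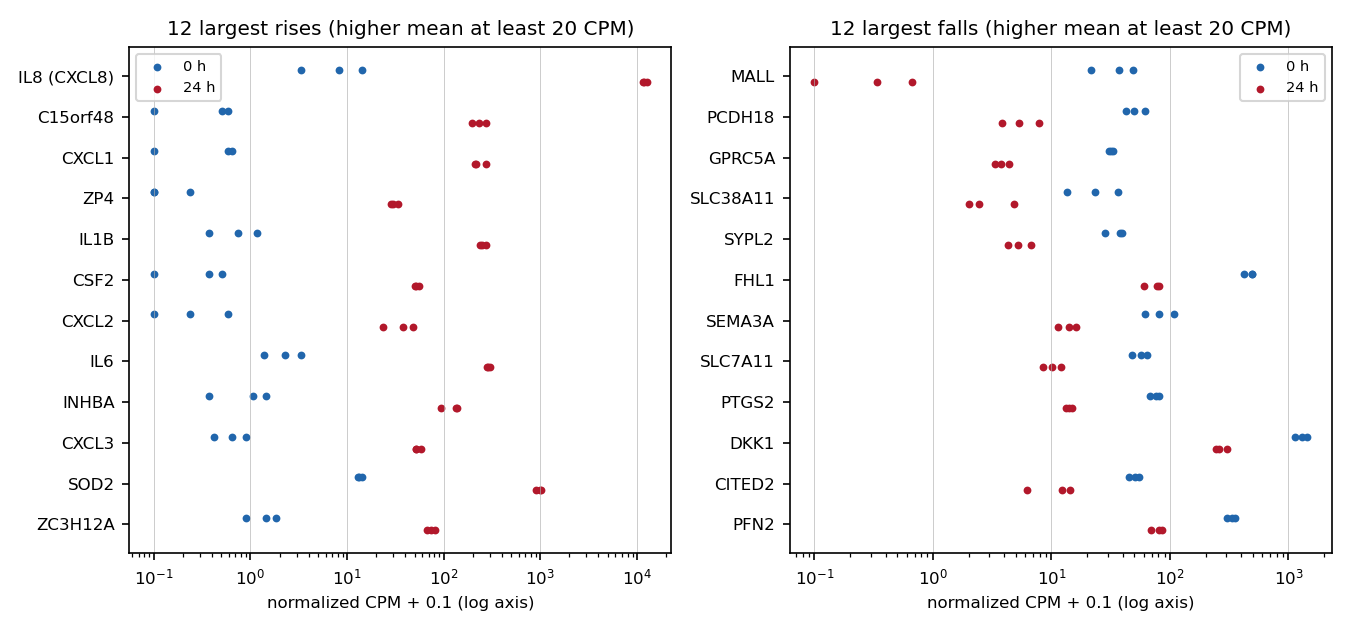
Each point is 1 library of CRISPRko control fibroblasts, blue at 0 h and red at 24 h, with normalized CPM plus 0.1 on a log axis, for the 12 largest called rises and the 12 largest called falls whose libraries do not overlap and whose higher mean is at least 20 CPM. IL8 lies above 11000 CPM at 24 h and MALL at or below 0.571 CPM, and the 2 times are separated in every gene shown.

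The promoters of 4 of these chemokines are shown because each holds the NF-κB consensus near its start. The sequences are the 250 bases before the RefSeq transcript start (GRCh38.p14), written 5′ to 3′ on the gene's strand, and capitals mark the stretch covered by 2 overlapping matches, 1 on each strand. CXCL1 is at chr4:73869143-73869392 on the plus strand, CXCL6 at chr4:73836428-73836677 on the plus strand, CXCL5 at chr4:73998678-73998927 on the minus strand and CXCL2 at chr4:74099196-74099445 on the minus strand.
CXCL1: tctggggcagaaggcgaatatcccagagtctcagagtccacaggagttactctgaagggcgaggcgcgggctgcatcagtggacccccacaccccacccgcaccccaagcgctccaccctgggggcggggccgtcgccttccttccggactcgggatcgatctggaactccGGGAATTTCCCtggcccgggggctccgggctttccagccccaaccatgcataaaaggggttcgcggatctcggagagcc
CXCL6: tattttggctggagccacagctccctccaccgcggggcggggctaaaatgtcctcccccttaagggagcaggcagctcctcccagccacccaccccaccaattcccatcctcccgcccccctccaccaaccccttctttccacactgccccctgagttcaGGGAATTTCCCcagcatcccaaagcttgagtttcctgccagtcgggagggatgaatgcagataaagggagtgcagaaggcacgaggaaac
CXCL5: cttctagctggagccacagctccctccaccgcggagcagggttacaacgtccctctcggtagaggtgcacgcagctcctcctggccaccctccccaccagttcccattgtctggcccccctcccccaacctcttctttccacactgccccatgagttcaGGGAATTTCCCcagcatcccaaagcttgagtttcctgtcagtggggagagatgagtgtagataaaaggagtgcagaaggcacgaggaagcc
CXCL2: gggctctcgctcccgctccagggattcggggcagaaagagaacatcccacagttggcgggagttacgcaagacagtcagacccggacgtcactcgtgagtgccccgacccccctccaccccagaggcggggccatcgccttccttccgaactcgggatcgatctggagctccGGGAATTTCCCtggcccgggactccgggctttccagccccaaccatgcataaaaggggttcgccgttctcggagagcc
The marked stretch begins 79 bases before the start in CXCL1, 90 in CXCL6, 91 in CXCL5 and 78 in CXCL2, and it has the same letters in all 4. The 250 bases were 85.6% identical between CXCL6 and CXCL5 and 78.8% identical between CXCL1 and CXCL2, and 59.6% to 63.2% identical between the other pairs. Over promoters of 250 bases before to 50 after the start, the consensus was found on either strand in 99 of 577 genes called higher with a promoter sequence (17.2%), in 44 of 334 called lower (13.2%) and in 1127 of all 8885 genes tested with one (12.7%). Among called genes that rose by at least 2 on the log2 scale it was in 26 of 111 (23.4%). The AP-1 motif TGANTCA was in 6.59% of promoters of genes called higher, 7.49% of those called lower and 4.40% of all. Among called genes that rose by at least 2 it was in 13 of 111 (11.7%). The TEAD motif GGAATG was in 12.5%, 14.7% and 10.7%, and the SMAD element GTCTAGAC in 0%, 0% and 0.135%. In the same 111 promoters the TEAD motif was in 13.5% and the SMAD element in 0%. CXCL3 and IL6 also hold the NF-κB consensus, and the promoter of IL8 holds no match to these letters. A match describes the sequence and is not a measured binding site.

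IL-6 family cytokines signal through gp130. Of 10 tested members of a list of these cytokines, their receptors and STAT3 and SOCS3, 7 were called higher and none lower, with a median log2 fold change of 0.91. The 7 were the cytokine genes IL6, IL11, LIF, CLCF1 and EBI3, the receptor OSMR and STAT3. IL6 (chromosome 7, 22725884 to 22732002, plus strand), the founding member, was at 3.24, 1.29 and 2.16 CPM at 0 h and 298, 283 and 288 CPM at 24 h. Its 24 h libraries lay close together and far above every 0 h library, and the log2 fold change was 6.97 ± 0.41 (edgeR adjusted p = 1.05e-14). LIF, leukaemia inhibitory factor, was at 0.540, 0.161 and 0.270 CPM and then at 5.90, 7.48 and 4.99 CPM, a log2 fold change of 4.01 ± 0.62 (edgeR adjusted p = 1.63e-05). EBI3, a subunit of IL-27 and IL-35, had 3 counts over the 3 libraries at 0 h and 26 at 24 h, a ratio of 12.9 after scaling with a 95% counting interval of 3.97 to 66.8.

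IL11 (chromosome 19, 55364382 to 55370463, minus strand), the cytokine that the reporter follows, rose less than these. It was at 2.43, 1.45 and 3.24 CPM at 0 h and 5.14, 14.5 and 6.18 CPM at 24 h, so the times did not overlap but 1 of the 24 h libraries stood well above the other two. The log2 fold change was 1.79 ± 0.43 (edgeR adjusted p = 0.00455), on 9 to 18 counts per library at 0 h and 26 to 31 at 24 h. The call was lost without the 24 h replicate 2 library, the shallowest. It was also lost by limma on log2(TPM + 1), with and without a filter. The oncostatin M receptor OSMR rose by 1.16 and CLCF1, a ligand of the CNTF receptor, by 0.67 on the log2 scale. STAT3, the factor these cytokines activate, rose by 0.52, whereas the shared receptor IL6ST (-0.07), the IL-11 receptor IL11RA (-0.76) and the feedback inhibitor SOCS3 (0.20) did not pass the test.

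Colony-stimulating factors and IL-1 cytokines also rose. Of 10 tested members of this list 6 were called higher and none lower, with a median log2 fold change of 2.48. IL1B, the gene for the same cytokine that was added as protein, was at 1.08, 0.644 and 0.270 CPM at 0 h and 239, 251 and 275 CPM at 24 h (log2 fold change 8.38 ± 0.46, edgeR adjusted p = 3.34e-15). CSF2, which encodes GM-CSF, was at 0.405, 0 and 0.270 CPM and then 52.0, 50.9 and 54.9 CPM, a log2 fold change of 7.69 ± 0.46 on 4 counts in all at 0 h. The groups lay far apart in both genes. CSF3, which encodes G-CSF, had 1 count in all at 0 h and 139 at 24 h, a ratio of 208 with a counting interval of 36.6 to 8256. CSF1, which supports macrophages, rose by 2.08 and IL32 by 3.73 on the log2 scale, and IL1A went from 0 to 0.644 CPM to between 1.40 and 2.66 CPM (log2 fold change 2.88 ± 0.66). TNFSF15 (1.80), IL7 (0.29), IL15 (0.63) and the decoy receptor TNFRSF11B (-0.78) did not pass the test.

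**Figure D3:**
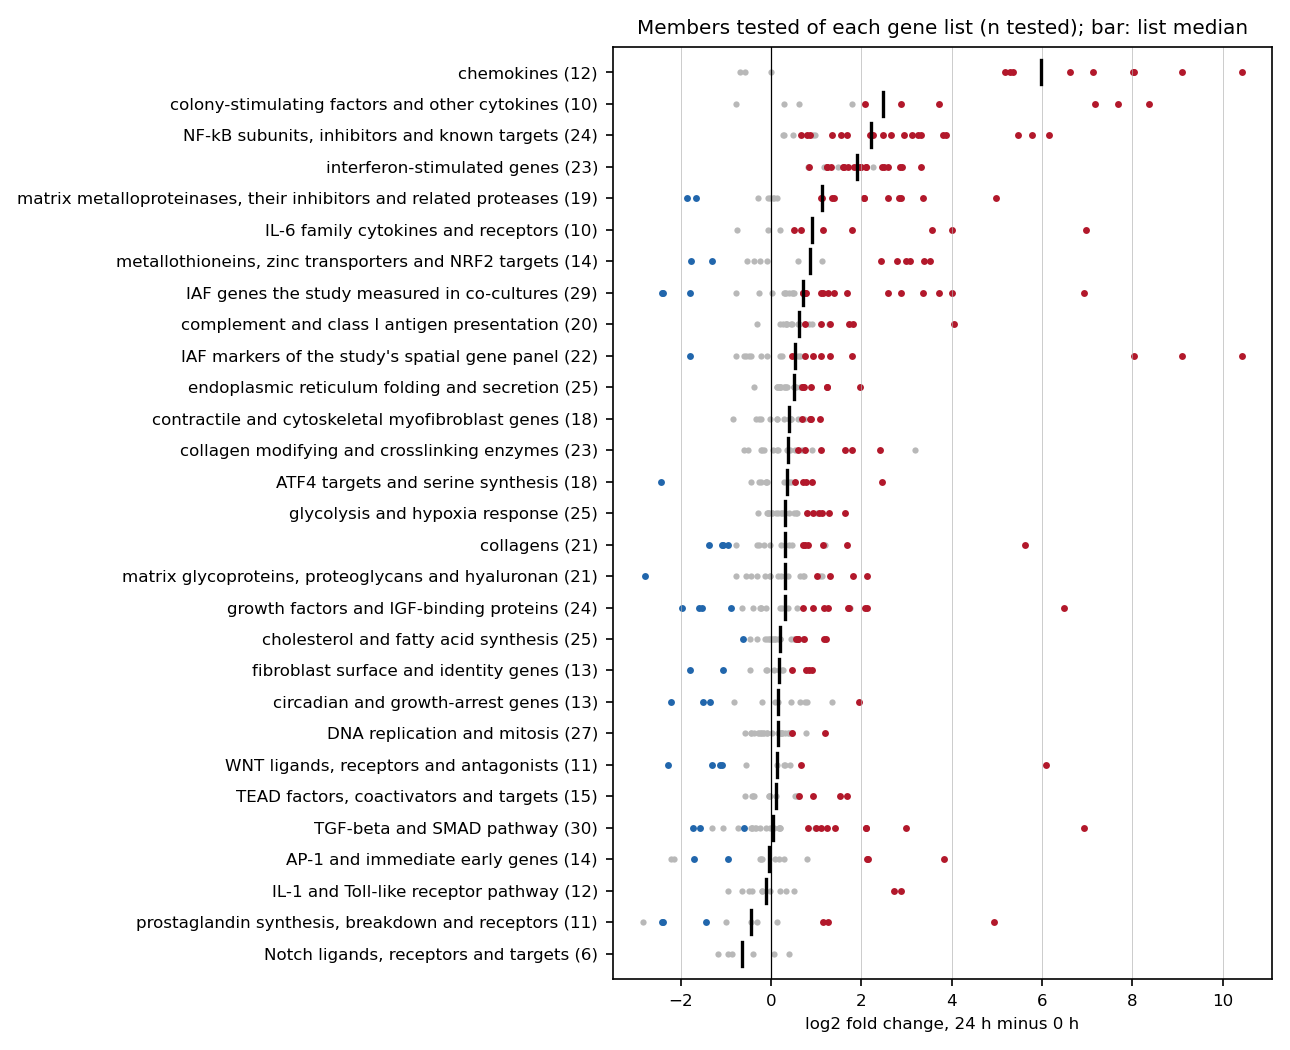
Each point is 1 tested member of a gene list, placed by its log2 fold change at 24 h against 0 h, in red where called higher, blue where called lower and grey where not called. The black bar is the list's median over the members tested, whose number is in brackets, and it lies above 1.8 for chemokines, colony-stimulating factors and other cytokines, NF-κB genes and interferon-stimulated genes.

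Of 12 tested genes of the IL-1 and Toll-like receptor pathway 2 were higher and none lower, beside 6.53% of all genes tested called higher, with a median of -0.11. IRAK2, a kinase of the receptor complex, was at 1.62, 3.22 and 5.67 CPM and then 26.3, 17.8 and 18.1 CPM (log2 fold change 2.73 ± 0.32, edgeR adjusted p = 9.62e-08), and MAP3K8, a kinase upstream of ERK, rose by 2.88 ± 0.66. The receptor IL1R1 (-0.64), its accessory chain IL1RAP (0.50) and the adaptor MYD88 (-0.03) did not pass the test.

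Below the receptor, 19 of 24 tested NF-κB subunits, inhibitors and known targets were higher and none lower, with a median of 2.22. SOD2, the mitochondrial superoxide dismutase, was at 13, 14.2 and 13.2 CPM at 0 h and 1012, 981 and 904 CPM at 24 h (log2 fold change 6.16 ± 0.30, edgeR adjusted p = 1.56e-16). The libraries of each time were tightly grouped and lay far apart. ZC3H12A, the RNase regnase-1 that degrades cytokine transcripts, rose by 5.78 ± 0.26 and IER3, an early survival gene, by 5.48 ± 0.36, the latter from 13.8 to 25.1 CPM to between 855 and 880 CPM. Inhibitors of NF-κB rose too. NFKBIA, which encodes IκBα, was at 44.8, 32.8 and 42.1 CPM and then 294, 328 and 305 CPM (2.95 ± 0.19), and TNFAIP3, which encodes A20, rose by 3.26. NFKBIZ, another member of the list, rose by 3.81. The adhesion molecule ICAM1 rose by 3.88 and the signalling adaptor TRAF1 by 3.32. Of the subunits, NFKB2 (2.49), RELB (2.26) and NFKB1 (0.79) rose, and REL (0.94) and RELA (0.49) did not pass the test.

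Interferon-stimulated genes, most of which act against viruses, were raised in 19 of 23 members with none lower and a median of 1.90. OAS1, which senses double-stranded RNA, was at 1.62, 5.15 and 1.08 CPM at 0 h and 22.5, 11.2 and 46.6 CPM at 24 h (log2 fold change 3.32 ± 0.53, edgeR adjusted p = 2.20e-05). The times did not overlap, and the 24 h libraries differed among themselves more than those of SOD2 or IL6 did, with replicate 2 the lowest and replicate 3 the highest. The same order of the 24 h libraries was seen in MX1, which blocks viral replication (31.2, 21.5 and 51.6 CPM), in OAS2 (22.8, 21 and 40.2 CPM) and in IRF7 (14.8, 11.2 and 23.8 CPM), but not in IFIH1 (14.3, 16.4 and 20.2 CPM), where replicate 1 was the lowest. MX1 rose by 2.91, the RNA sensor IFIH1 by 2.86 and IRF7, a factor that drives interferon genes, by 2.45. IFI27 (2.26), IFI44L (1.48), IFIT1 (1.18) and IFIT2 (0.83) did not pass the test.

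Of 20 tested genes of complement and class I antigen presentation 6 were higher and none lower, with a median of 0.62. Complement C3 (chromosome 19, 6677704 to 6730562, minus strand) was at 1.49, 1.13 and 0.810 CPM and then 24.4, 17.3 and 18.3 CPM (log2 fold change 4.05 ± 0.47, edgeR adjusted p = 7.19e-08). CD55, which protects cells from complement, rose by 1.81 and the peptide transporter TAP1 by 1.10. HLA-B was at 1037, 926 and 1257 CPM at 0 h and 1549, 3617 and 2823 CPM at 24 h (1.31 ± 0.40, edgeR adjusted p = 0.0284), and its call and that of HLA-F (1.73) were each lost when any of several libraries was left out, the 24 h replicate 2 among them. Class I genes resemble each other in sequence, so their counts are uncertain. HLA-C (1.29) and B2M (0.62) did not pass the test.

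The TGFβ pathway gave a mixed picture. Of 30 tested members 9 were higher and 3 lower, and the median was 0.05 in the main fit and -0.19 to -0.20 on the log2 TPM scale, and it was -0.05 without the 0 h replicate 3 library and -0.01 without the 24 h replicate 3 library. INHBA (chromosome 7, 41667168 to 41705834, minus strand), which encodes the activin A subunit, was at 1.35, 0.966 and 0.270 CPM and then 137, 134 and 93.9 CPM (log2 fold change 6.94 ± 0.35, edgeR adjusted p = 2.89e-16). TGFB2, a TGFβ ligand, was at 10.5, 4.35 and 2.70 CPM and then 48.7, 50 and 51.6 CPM (2.98 ± 0.31), and both genes were separated between the times. TGFB1 (-0.44) and the receptors TGFBR1 (0.07) and TGFBR2 (-0.10) did not pass the test. Among known targets of the pathway, PMEPA1, a feedback inhibitor, and NOX4, a peroxide-producing oxidase, each rose by 2.10, SKIL by 1.24 and the matrix protein TGFBI by 1.10.

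SMAD3, a factor that carries the signal, was at 6.48, 8.85 and 11.1 CPM at 0 h and 2.28, 3.27 and 3.33 CPM at 24 h (-1.58 ± 0.32, edgeR adjusted p = 0.000607). SMAD7, the inhibitory SMAD, was at 4.73, 1.29 and 1.35 CPM and then 3.81, 8.41 and 9.75 CPM, and its libraries overlapped between the times. It passed narrowly (1.41 ± 0.46, edgeR adjusted p = 0.0453), and the call was lost with 4 of the 6 libraries left out in turn. The BMP ligand BMP4 (-1.72) and the BMP target ID1 (-0.60) fell, and the call for BMP4 was lost whichever of the 6 libraries was left out.

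Of 14 tested AP-1 and immediate early genes 3 were higher and 2 lower, and the median was -0.05, against 0.08 in a fit of only the 6 libraries and 0.12 without the 0 h replicate 3 library. ATF3, a stress-induced factor, rose by 3.83 ± 0.60 on low counts, JUNB by 2.15 and MAFF by 2.12. DUSP4 (-1.70) and DUSP6 (-0.95), phosphatases that switch off MAP kinases, fell. FOSL1 (-0.24), FOSL2 (0.28), JUN (-0.19) and EGR1 (-2.21) did not pass the test. Of 15 tested TEAD factors, coactivators and targets 4 were higher and none lower, with a median of 0.11 that was -0.08 to -0.09 on the log2 TPM scale. CTGF (now CCN2), a matricellular target, was at 4327, 2676 and 2454 CPM and then 8526, 10505 and 8023 CPM (1.52 ± 0.34, edgeR adjusted p = 0.00210), and the kinase NUAK2 rose by 1.69. CYR61 (now CCN1) had an adjusted p of 0.0496 (edgeR) and lost its call whichever of the 6 libraries was left out.

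Collagen genes moved in both directions. Of 21 tested 6 were higher and 4 lower, with a median of 0.32. COL7A1, the anchoring fibril collagen, was at 35.8, 23.3 and 27.6 CPM and then 86.2, 112 and 84.4 CPM (log2 fold change 1.69 ± 0.19, edgeR adjusted p = 5.26e-08). The beaded filament chains COL6A2 and COL6A1 rose by 1.16 and 0.72, and COL6A3, their partner, was at -0.26 and did not pass. COL10A1, a collagen of hypertrophic cartilage, had 2 counts in all at 0 h and 79 at 24 h, a ratio of 59.0 with a counting interval of 15.8 to 496. COL11A1 (-1.09), COL8A1 (-1.07) and COL12A1 (-0.94) fell, as did COL4A5 (-1.38), whose call was lost in 5 of the 6 fits that left out a library. The main fibrillar collagen COL1A1 was at 4054, 4438 and 3170 CPM and then 6244, 7923 and 5198 CPM, and although the libraries did not overlap the difference did not pass the test (0.73 ± 0.50, edgeR adjusted p = 0.460). COL1A2 (0.22) and COL3A1 (0.46) did not pass either.

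Enzymes that modify and crosslink collagen were higher in 6 of 23 tested members and lower in none, with a median of 0.38. LEPREL1 (now P3H2), a prolyl 3-hydroxylase, was at 16.1, 20.6 and 22.7 CPM and then 86.0, 131 and 99.9 CPM (2.42 ± 0.28, edgeR adjusted p = 9.62e-08). LOXL4, a lysyl oxidase, rose by 1.80, the prolyl 4-hydroxylase P4HA2 by 1.64 and the lysyl hydroxylase PLOD2 by 1.11. LOX (-0.16), LOXL2 (-0.59) and the collagen chaperone SERPINH1 (0.38) did not pass the test. In matrix glycoproteins, proteoglycans and hyaluronan 4 of 21 were higher and 1 lower, with a median of 0.32. THBS1, thrombospondin 1, which releases latent TGFβ, was at 6550, 4301 and 3623 CPM and then 19792, 24427 and 18624 CPM (2.12 ± 0.37, edgeR adjusted p = 0.000102). The hyaluronan synthase HAS2 rose by 1.82 and tenascin C (TNC) by 1.30, whereas KIAA1199 (now CEMIP), which depolymerizes hyaluronan, fell from between 7.43 and 16.2 CPM to between 0.467 and 2.66 CPM (-2.78 ± 0.41, edgeR adjusted p = 6.37e-06). Fibronectin (FN1) had a log2 fold change of 1.12 ± 0.42 and periostin (POSTN) of 0.73, and neither passed.

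Of 18 tested contractile genes of myofibroblasts 4 were higher and none lower, beside 6.53% of all genes tested called higher, with a median of 0.41. ACTA2, smooth muscle actin, was at 1273, 1094 and 922 CPM at 0 h and 654, 1132 and 938 CPM at 24 h, and its libraries overlapped (-0.27 ± 0.35, edgeR adjusted p = 0.757). TAGLN (0.29) and CNN1 (0.44) did not pass. Smoothelin (SMTN) rose by 1.09 ± 0.27, the fibronectin receptor subunit ITGA5 by 0.89 and the actin-binding LMOD1 by 0.86. LMOD1 is also 1 of the 4 smooth muscle and pericyte markers and made up nearly all of their summed level, at 14.5, 11.4 and 8.26 TPM at 0 h and 15.4, 15.7 and 22.9 TPM at 24 h. Of the others RGS5 was below 1 TPM in every library, MYH11 at or near 0 and MCAM at 0. The calls for ITGA5 and LMOD1 were lost with 3 and 2 of the 6 libraries left out in turn.

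Matrix proteases were raised together with several of their inhibitors. Of 19 tested metalloproteinases, inhibitors and related proteases 11 were higher and 2 lower, with a median of 1.14. MMP3, stromelysin 1, was at 128, 153 and 157 CPM and then 1556, 1461 and 1496 CPM (log2 fold change 3.36 ± 0.33, edgeR adjusted p = 2.23e-09). MMP1, the interstitial collagenase, was at 317, 383 and 374 CPM and then 2713, 2718 and 2393 CPM (2.87 ± 0.34). Both lie in the metalloproteinase cluster of chromosome 11, as do MMP10 and MMP12. MMP10 rose by 2.84, and the macrophage elastase MMP12 went from 4 counts in all to 96, a log2 fold change of 4.99 ± 0.68. The gelatinase MMP2 rose by 1.39 and the membrane-bound MMP14 by 1.14. Inhibitors rose beside them, TIMP3 by 2.07 (from 317 to 460 CPM up to 1288 to 1956 CPM), TIMP1 by 1.35 and TFPI2 by 2.59. MMP16 (-1.67) and ADAMTS1 (-1.85) fell.

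Prostaglandin genes divided, with 3 of 11 higher and 3 lower and a median of -0.44. PTGS2, which encodes the inducible cyclooxygenase COX-2, was lower at 24 h than before the cytokines. It was at 76.8, 80.3 and 67.5 CPM at 0 h and 14.1, 13.1 and 14.7 CPM at 24 h (log2 fold change -2.41 ± 0.26, edgeR adjusted p = 2.38e-08), and the groups lay far apart. PTGES, the prostaglandin E synthase that works with COX-2, was at 3.38, 5.96 and 5.67 CPM and then 1.52, 0.935 and 0.238 CPM (-2.38 ± 0.61, edgeR adjusted p = 0.00828). The constitutive cyclooxygenase PTGS1 rose from 64.9, 76.9 and 77.5 CPM to 177, 185 and 167 CPM (1.27 ± 0.17, edgeR adjusted p = 9.22e-07). SLCO2A1, which takes prostaglandins up for breakdown, rose by 4.93 ± 0.62, on 6 counts in all at 0 h and 135 at 24 h. PTGIR, the prostacyclin receptor, rose by 1.16. AKR1C3 (-1.44) fell, and the receptor PTGFR (-0.30) did not pass.

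Among growth factors and IGF-binding proteins 9 of 24 were higher and 4 lower, with a median of 0.31. IGF2 had 1 count in all at 0 h and 82 at 24 h, a ratio of 122 with a counting interval of 21.4 to 4895. STC1 rose by 2.13, the lipase inhibitor ANGPTL4 by 2.08, IGFBP3 by 1.72 and FGF2 by 1.70. FGF5 (-1.60), ANGPT1 (-1.53), BDNF (-0.88) and GDF15 (-1.98) fell, GDF15 on fewer than 4 CPM in every library. Of 11 tested WNT ligands, receptors and antagonists 2 were higher and 4 lower, and the median was 0.13 in the main fit, -0.03 to -0.04 on the log2 TPM scale, -0.23 without the 0 h replicate 2 library and -0.34 without the 24 h replicate 2 library. DKK1 (chromosome 10, 52314281 to 52318042, plus strand), a secreted WNT antagonist, was at 1298, 1130 and 1443 CPM and then 243, 304 and 258 CPM (-2.27 ± 0.25, edgeR adjusted p = 1.93e-08). A second antagonist, SFRP1 (-1.30), and the receptors FZD4 (-1.12) and FZD7 (-1.09) fell. WNT16 had 1 count at 0 h and 62 at 24 h, a ratio of 92.6 with a counting interval of 16 to 3715, and WNT5B rose by 0.66. None of 6 tested Notch genes was called, beside 10.3% of all genes tested, and their median was -0.63.

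Genes of fibroblast surface and identity gave calls in both directions. Of 13 tested 4 were higher and 2 lower, and the median was 0.17 in the main fit and -0.04 on the log2 TPM scale. PDGFRA, a receptor for platelet-derived growth factor that marks subsets of fibroblasts, was at 39.7, 62.3 and 55.1 CPM and then 12.8, 13.1 and 19 CPM (-1.79 ± 0.23, edgeR adjusted p = 7.80e-07), while PDGFRB (0.06) did not pass. CD248, endosialin, also fell (-1.07), and its call was lost by DESeq2 and with 3 of the 6 libraries left out in turn. The protease DPP4 (0.91), the ectonucleotidase NT5E (0.84) and the homeobox factor PRRX1 (0.78) rose. Their calls were lost with 2, 2 and 5 of the 6 libraries left out in turn, in that order. FAP, fibroblast activation protein, was at 106, 122 and 98.9 CPM and then 150, 152 and 152 CPM (0.47 ± 0.14, edgeR adjusted p = 0.0257), and the call was lost with 5 of the 6 libraries left out in turn. GLIS3 was at 2.03, 1.45 and 2.16 CPM and then 2.47, 2.80 and 3.80 CPM, and did not pass the test (0.70 ± 0.45, edgeR adjusted p = 0.425). At 6 h GLIS3 was at 6.47, 4.78 and 4.42 CPM, above every 0 h library, and at 12 h it averaged 3.03 CPM. Its change at 6 h was not tested here, so the 24 h result does not speak to an earlier rise.

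Replication and mitosis gave 2 calls in 27 tested genes, both higher, which is near the 6.53% of all genes tested called higher. The median was 0.15 in the main fit, -0.06 to -0.07 on the log2 TPM scale and -0.02 without the 0 h replicate 2 library. CDC6, which loads the replicative helicase, rose by 1.19 ± 0.18 and MCM6, a subunit of that helicase, by 0.46, and the call for MCM6 was lost with 5 of the 6 libraries left out in turn, without a filter and in the limma fits. The proliferation marker MKI67 was at 96.5, 106 and 109 CPM and then 96.7, 96.7 and 83.7 CPM (-0.17 ± 0.16, edgeR adjusted p = 0.630), with overlapping libraries.

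Metallothioneins rose while some redox genes fell. Of 14 tested metallothioneins, zinc transporters and NRF2 targets 6 were higher and 2 lower, with a median of 0.87. MT2A was at 1118, 1133 and 939 CPM and then 6341, 5274 and 5556 CPM (2.43 ± 0.36, edgeR adjusted p = 7.60e-06), and the zinc importer SLC39A14 was at 81.3, 96.9 and 75.6 CPM and then 689, 780 and 666 CPM (3.07 ± 0.26, edgeR adjusted p = 5.87e-11). MT1M (3.52), MT1X (3.39) and MT1E (2.78) rose, and since metallothionein genes are near-identical the split between them is uncertain. The NRF2 targets TXNRD1 (-1.78) and NQO1 (-1.30) fell, TXNRD1 from 1261 ± 81.2 to 366 ± 20.1 CPM (SD, n = 3), while HMOX1 (-0.24) and GCLM (-0.08) did not pass. SLC7A11, the cystine importer, which was placed in the list of ATF4 targets and is also controlled by NRF2, was at 47.5, 56.8 and 64.0 CPM and then 10.1, 8.41 and 11.9 CPM (-2.43 ± 0.23, edgeR adjusted p = 1.45e-09). The other called members of that list rose, with 5 of 18 higher and 1 lower and a median of 0.36, and DDIT4, an inhibitor of mTORC1, rose by 2.45.

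In the endoplasmic reticulum list 7 of 25 genes were higher and none lower, with a median of 0.50. The co-chaperone DNAJB9 was at 24.3, 21.7 and 18.4 CPM and then 90.8, 86.5 and 79.7 CPM (1.98 ± 0.19, edgeR adjusted p = 1.00e-09), HYOU1 rose by 1.25 and HERPUD1 by 1.24, and the chaperone HSPA5 (0.64) did not pass. In glycolysis and the hypoxia response 6 of 25 were higher and none lower, with a median of 0.32. PFKFB4 rose by 1.63, hexokinase HK2 by 1.28, the glucose transporter SLC2A1 by 1.07 and HIF1A by 0.93. In cholesterol and fatty acid synthesis 6 of 25 were higher and 1 lower, and the median was 0.20 in the main fit and -0.03 to -0.04 on the log2 TPM scale. INSIG1, which holds the SREBP factors back, rose by 1.22. Among circadian and growth-arrest genes 1 of 13 was higher and 3 were lower, beside 6.53% and 3.73% of all genes tested. Their median was 0.15 in the main fit and 0.00 on the log2(TPM + 1) scale. FOXO3 rose by 1.96, and CITED2 (-2.21) and the alpha-arrestins ARRDC4 (-1.50) and ARRDC3 (-1.36) fell.

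Some of the largest changes were in genes of none of these lists. C15orf48, a mitochondrial protein of inflamed cells, was at 0.405, 0.483 and 0 CPM and then 273, 230 and 198 CPM (log2 fold change 9.31 ± 0.35, edgeR adjusted p = 2.81e-19). ZP4, a gene known for the egg coat, had 1 count over the 3 libraries at 0 h and 350 at 24 h, a ratio of 523 with a counting interval of 93.2 to 20701, and its 24 h libraries were at 30.1, 33.7 and 28.5 CPM. Its libraries were separated as clearly as those of the chemokines.

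Among the largest falls, MALL (chromosome 2, 110083870 to 110116022, minus strand), a membrane raft protein, had 571 counts over the 0 h libraries and 4 over the 24 h libraries, and was at 21.6, 37.2 and 48.6 CPM and then 0.571, 0 and 0.238 CPM. Its log2 fold change was -6.59 ± 0.56 (edgeR adjusted p = 7.51e-11). FHL1, a LIM-domain protein of muscle, was at 488, 496 and 421 CPM and then 81.3, 60.8 and 77.5 CPM (-2.67 ± 0.20, edgeR adjusted p = 3.49e-12), and profilin 2 (PFN2) was at 300, 351 and 335 CPM and then 68.9, 85.1 and 81.3 CPM (-2.07 ± 0.20). The times were separated in all 3 genes. The protocadherin PCDH18 (-3.10), the receptor GPRC5A (-3.06), the amino acid transporter relative SLC38A11 (-2.96), SYPL2 (-2.72) and the guidance factor SEMA3A (-2.59) completed this group of falls.

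Both lists of genes of inflammation-associated fibroblasts (IAFs) were chosen by the study and are not independent evidence of a direction. Of the list from co-cultures, 29 genes were tested, of which 15 were higher and 3 lower, with a median of 0.71, and the 3 lower genes were PDGFRA, PTGES and PTGS2. The tetraspanin CD82 was at 8.37, 9.18 and 11.9 CPM and then 137, 121 and 122 CPM (3.72 ± 0.19, edgeR adjusted p = 9.55e-16). Of 22 tested IAF markers of the spatial gene panel 9 were higher and 1 lower, with a median of 0.54, and the lower one was again PDGFRA.

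The same cells were also sequenced at 6 and 12 h, which shows where the 24 h value lies on the course of each gene. Of the 716 genes called higher at 24 h, 299 (41.8%) had their highest mean at 24 h, 264 (36.9%) at 12 h and 153 (21.4%) at 6 h. Of the 409 called lower, 255 (62.3%) had their lowest mean at 24 h, 135 (33%) at 12 h and 19 (4.65%) at 6 h. These genes were chosen by their 24 h values. IL8 averaged 32315 CPM at 6 h and 26410 at 12 h, IL6 averaged 2605 and 1188, and CXCL1 averaged 1476 and 1187, each above its 24 h libraries. LIF averaged 836 CPM at 6 h and 31.6 at 12 h, so most of its level was gone before 24 h, when it was still above 0 h.

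PTGS2 averaged 1280 CPM at 6 h and 131 at 12 h before it reached its 24 h level below the starting level. CSF2 averaged 670 CPM at 6 h and 973 at 12 h, and IL1B averaged 1769 and 1668, all far above their 24 h libraries. SOD2 averaged 768 CPM at 6 h and 1094 at 12 h, near its 24 h libraries. C3 averaged 2.18 and 4.42 CPM and THBS1 4483 and 9858 CPM at 6 and 12 h, and both had their highest mean at 24 h. WNT16 averaged 0.199 and 0.477 CPM at these times and was at 4.57 to 6.08 CPM at 24 h, and IGFBP3 averaged 3014 and 4085 CPM and was at 7443 to 10457 CPM. DKK1 fell early, averaging 189 CPM at 6 h and 95.0 at 12 h, and was above the 12 h mean again at 24 h.

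**Figure D4:**
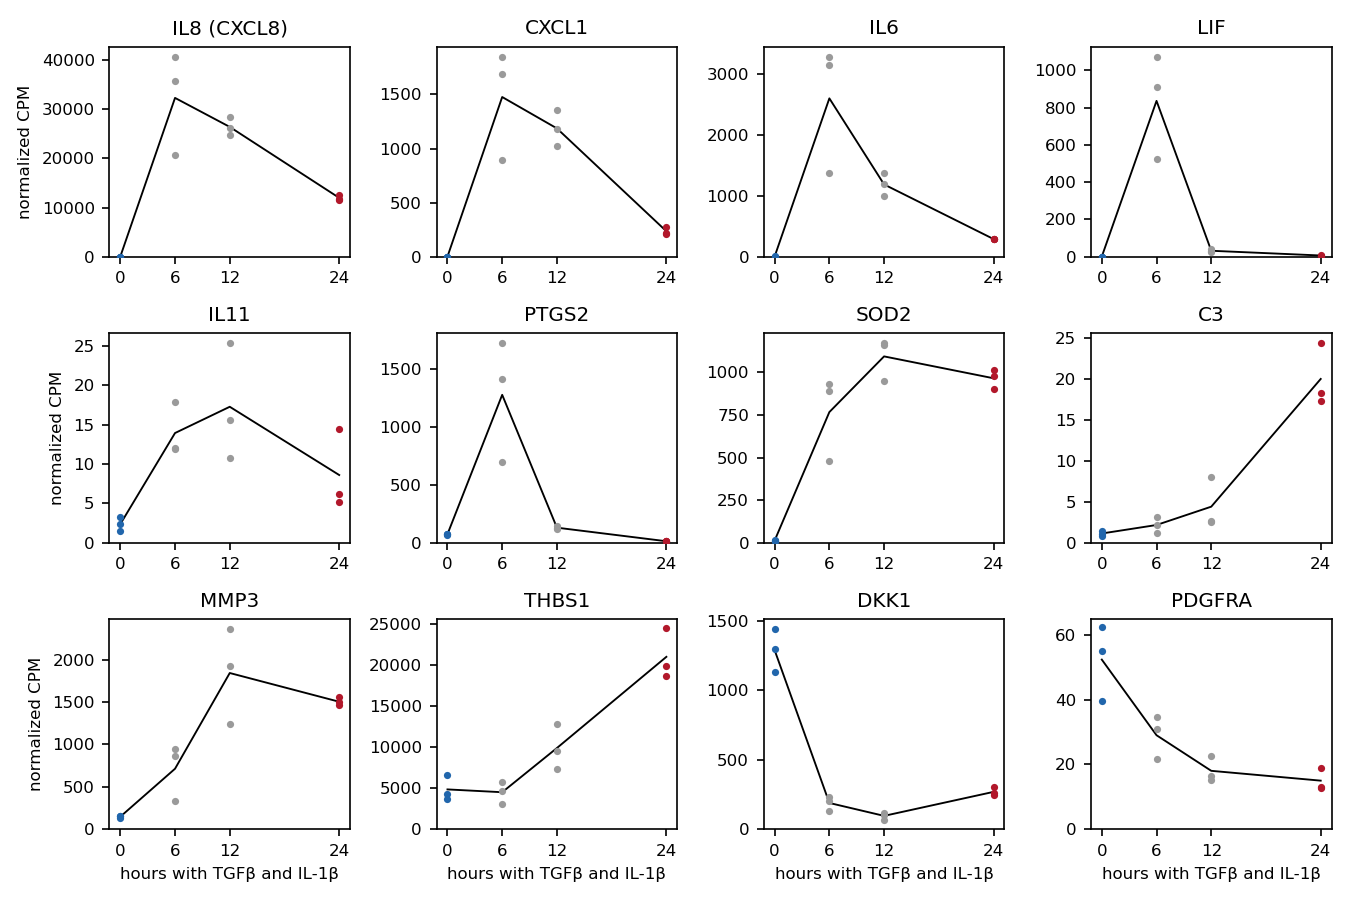
Normalized CPM of 12 genes in CRISPRko control fibroblasts against hours with TGFβ and IL-1β. Points are single libraries (blue at 0 h, grey at 6 and 12 h, red at 24 h) and lines join the means of 3 libraries. IL8, CXCL1, IL6, LIF and PTGS2 have their highest mean at 6 h, IL11, SOD2 and MMP3 at 12 h, and C3 and THBS1 at 24 h, while DKK1 and PDGFRA are below their 0 h libraries at every later time.

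In the GLIS3 CRISPRko fibroblasts, GLIS3 itself was at 0.354, 0.144 and 0.395 CPM at 0 h and 1.04, 1.21 and 1.63 CPM at 24 h, below the control libraries of the same time. The response to 24 h of cytokines was tested for a difference from that of the controls. By edgeR 0 of 10962 genes differed (0%), with a smallest adjusted p of 0.290, and 616 had an unadjusted p under 0.05. DESeq2 called 1. Fold changes in the knockouts for genes described above were 8.88 for IL8, 6.80 for IL6, 2.75 for IL11, 6.34 for C3, 2.90 for MMP3, -2.86 for PTGS2, -2.56 for DKK1 and -1.38 for PDGFRA (log2 scale). A difference that did not pass does not show that the responses were alike.

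The activation arm gave a response to the same cytokines in other libraries, from cells with the same reporter. In VP64_Ctrl, 10.4% of 10980 genes tested were called higher at 24 h and 5.57% lower, and in VP64_A 9% and 4.55%. Of 704 genes called higher in the CRISPRko controls and tested in both, 518 were also called higher in VP64_Ctrl, which is 73.6% of the 704 and 46.2% of the 1120 genes called higher there. Of 404 called lower 224 were also called lower, which is 55.4% of the 404 and 37.4% of 599. In VP64_A the counts were 475 (67.5% and 49.2% of 966) and 186 (46% and 38.1% of 488). IL8 (11.13), IL6 (8.28), SOD2 (6.64) and MALL (-4.96) were all called in VP64_Ctrl in the same direction (log2 fold changes). ACKR4 and PEG10 were called lower in the CRISPRko controls and higher in VP64_Ctrl, and PTGS2, RGMB and TRIM16L were lower in the CRISPRko controls and higher in VP64_A. PTGS2 had a log2 fold change of 2.26 in VP64_A and of -0.53 in VP64_Ctrl, where it did not pass. Its response in VP64_Ctrl minus that in the CRISPRko controls was 1.89 ± 0.42 (SE), with an edgeR adjusted p of 0.0138. PTGS2 went from 21.6 ± 8.76 to 15.2 ± 4.45 CPM (SD, n = 3) in VP64_Ctrl. In the CRISPRko controls it was at 67.5 to 80.3 CPM at 0 h and 13.1 to 14.7 CPM at 24 h. These cells thus lay further apart at 0 h than at 24 h, and the cause was not tested.

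**Figure D5:**
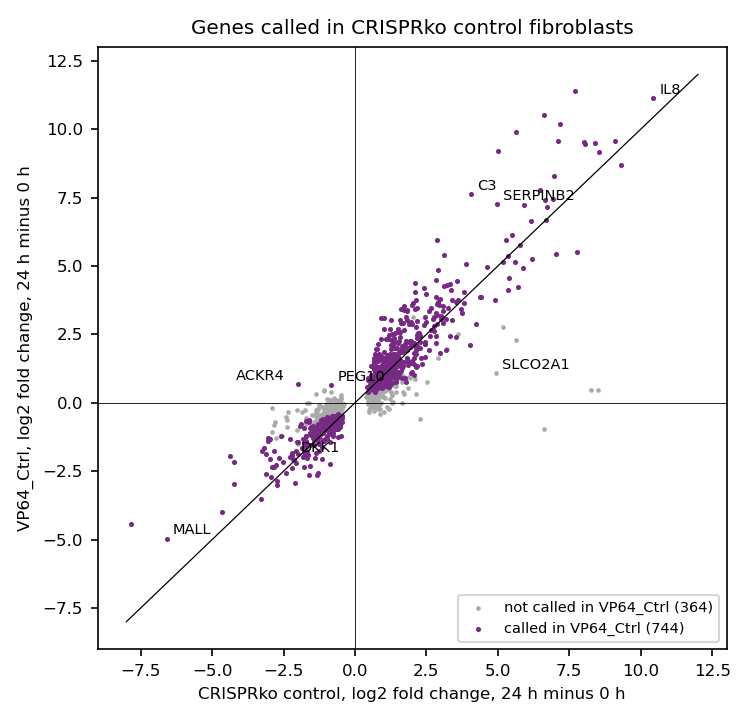
Each point is 1 of the genes called at 24 h in CRISPRko control fibroblasts and tested in both arms, with its log2 fold change there (horizontal) and in VP64_Ctrl (vertical). Purple points were also called in VP64_Ctrl, grey points were not, and the diagonal marks equal values. Most points lie in the quadrants of equal sign, and ACKR4 and PEG10 are the purple points that do not.

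The difference between the VP64_Ctrl response and the CRISPRko control response was called in 56 of 11422 genes (0.490%), 48 of them higher in VP64_Ctrl and 8 lower, and in 21 to 85 genes with 1 library left out, the fewest without VP64_Ctrl 24 h replicate 1 and the most without VP64_Ctrl 24 h replicate 3. Of the genes called higher in the CRISPRko controls 25 were among them, and of those called lower 11. C3 went from 0.215 ± 0.0569 to 48.6 ± 6.09 CPM (SD, n = 3) in VP64_Ctrl, a larger rise than in the CRISPRko controls, and SERPINB2, a protease inhibitor of stressed cells, had a log2 fold change of 7.27 there against 4.96 here. SLCO2A1 went from 0.531 ± 0.256 to 1.16 ± 0.225 CPM (SD, n = 3) in VP64_Ctrl, where its response did not pass the test. The arms differ in nuclease, guide and cell population, which cannot be told apart here. If the titles rather than the descriptions are right, the VP64_Ctrl cells also differ by GLIS3 activation. GLIS3 averaged 2.22 CPM at 0 h and 3.25 CPM at 24 h in VP64_Ctrl, and 1.88 and 3.03 CPM in the CRISPRko controls. Which labels are right was not tested.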

How the data were processed

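RNA was extracted with Trizol, and libraries were made with Nextera XT and sequenced on a NextSeq 500. The authors used Trim Galore to trim reads, SortMeRNA to filter out ribosomal RNA, STAR to align to GRCh38 and Salmon for gene levels, with versions not given in the sources used here. They deposited estimated counts, not normalized between libraries, and TPM, scaled for transcript length and to one total per library, for 29744 genes. The strand setting is not given, so reads of overlapping and antisense genes may not be separated. Of the estimated counts 6.38% were not whole, and all were rounded.

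The 24 libraries of the CRISPRko arm were fitted in 8 groups with edgeR 4.0.16 (R 4.3.3), with TMM scaling, filterByExpr (minimum count 10, minimum total 15) and the two-sided quasi-likelihood F test. Calls required an adjusted p under 0.05 (Benjamini-Hochberg, over the 10962 genes tested). The activation arm was fitted likewise, and both arms together for the difference in response. CPM are on TMM-scaled totals. Alternatives were DESeq2 1.42.0, its size factors, no filter, fewer libraries, limma 3.58.1 on log2 TPM plus 1 or 0.1, other thresholds, each library left out and a replicate block. The fits were tested on simulated counts. A floor of 3 counts over a group gives the bounds, and counting intervals are exact at 95%.

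The libraries compared and the gene lists were chosen with earlier results of these data known. Genes were named as the 12 largest rises and 12 largest falls among called genes with separate libraries and a higher mean of at least 20 CPM, up to 6 called members of each of 29 lists, a set of genes always shown (IL11, LIF, IL6, IL8, GLIS3, TGFBI, FAP, MMP2, PTGFR, PDGFRA, COL1A1, COL6A1, COL6A3, ACTA2, SMAD7, NFKBIA and MKI67), and up to 6 genes in each test of a difference. Other list members, the 5 genes called in opposite directions and genes named for their TPM were named after their values were seen. Some genes are not reported here. Gene coordinates are from GENCODE v44, and promoters were matched by symbol to RefSeq (GRCh38.p14).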

Additional observations from a re-analysis of the deposited data

Results flagged for a closer look

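The response to 24 h with TGFβ and IL-1β differed between VP64_Ctrl and CRISPRko control fibroblasts in 56 genes (edgeR, interaction of time and cells, 11422 genes tested), and this test of the difference is why the genes below are listed. The count was 21 to 85 with 1 library left out. The difference is given as the VP64_Ctrl log2 fold change minus the CRISPRko control one. It was -3.84 ± 0.92 (SE; edgeR adjusted p = 0.0342) for the prostaglandin transporter SLCO2A1 and 3.56 ± 0.72 (edgeR adjusted p = 0.00725) for complement C3. Both rest on few counts at 0 h, 6 in all for SLCO2A1 and 21 for C3 in the CRISPRko controls. TRIM22, an antiviral ubiquitin ligase, had a difference of 2.90 ± 0.43 (edgeR adjusted p = 6.07e-05): it was at 17.7, 21.7 and 21.9 CPM at 0 h and 8.37, 14.5 and 16.6 CPM at 24 h in the CRISPRko controls, where its response of -0.66 did not pass, and rose by 2.24 on the log2 scale in VP64_Ctrl. The interferon-stimulated IFIT2 differed by 2.53 ± 0.43 (edgeR adjusted p = 0.000676), with a response of 0.83 that did not pass in the CRISPRko controls and of 3.37 in VP64_Ctrl. The scavenger receptor ACKR4 differed by 2.65 ± 0.37 (edgeR adjusted p = 5.63e-05): it fell from 12.8, 29.9 and 28.9 CPM to 5.52, 7.48 and 5.47 CPM in the CRISPRko controls and rose by 0.67 in VP64_Ctrl. SERPINB2 differed by 2.31 ± 0.49 (edgeR adjusted p = 0.00997). Apart from leaving out each library in turn, groups of 3 libraries were not examined for single outlying libraries.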

How the results depend on the processing

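Of 158 called genes named by the rule, 103 kept their call under every other setting of the fit and 119 under every left-out library, and 0 of the 166 named genes changed direction. The count of 1125 calls was 1138 by DESeq2 (1088 of them shared) and 1101 with a replicate block (1078 shared). With the block the calls of SMAD7, COL4A5 and CYR61 were lost. Deviations of same-numbered libraries from their group means had correlations of 0.0125, -0.0271 and 0.0271. Those of differently numbered libraries ran from -0.0605 to 0.0577. With 3 libraries a group, these values cannot settle whether same-numbered libraries were handled together. Limma on log2(TPM + 0.1), log2(TPM + 1) and the latter without a filter called 640, 637 and 632 genes, of which 290, 277 and 265 were higher. They shared only 549, 545 and 492 of the 1125 calls (48.8%, 48.4% and 43.7%). OSMR, HK2, INSIG1 and CDC6 were among the named genes that lost their calls in all of these limma fits. Unadjusted p-values gave 2295 (1350 higher, 945 lower) and a minimum log2 fold change of 1 gave 582 (384 higher, 198 lower). Leaving out 1 library gave 778 to 882 calls, 522 to 586 higher and 256 to 303 lower, with 256 lower without 0 h replicate 2, 258 without 24 h replicate 1 and 271 without 24 h replicate 3. Between 757 and 833 of the 1125 calls (67.3% to 74%) were shared by a fit that left out a library. Besides the losses given with the results, CLCF1 and ARRDC3 lost their calls in 4 of these 6 fits, DUSP6, GDF15 and WNT5B in 3, FZD4 and FZD7 in 2, and AKR1C3, COL11A1, COL6A1, HIF1A and PTGES in 1. The GLIS3 CRISPRko difference gave 1 gene by DESeq2, 21 without a filter, 616 unadjusted and 0 with any library left out. The VP64_Ctrl response gave 1149 to 1811 calls and that of VP64_A 1094 to 1278 with 1 library left out. The VP64_Ctrl difference gave 89 genes by DESeq2, 145 without a filter and 21 to 85 with 1 library left out, with 21 without VP64_Ctrl 24 h replicate 1, 85 without VP64_Ctrl 24 h replicate 3, and 26, 30, 35 and 37 without CRISPRko control 24 h replicate 1, 0 h replicate 2, 0 h replicate 1 and 24 h replicate 2. The causes of these changes were not tested. Genes with few counts, such as EBI3, MT1G and GDF15, are limited by depth, most in the shallowest library.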

Other observations

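Some genes of no list described above also changed by large amounts, and they were chosen after their values were seen. The acute-phase gene SAA1 was at 0 CPM in all 0 h libraries and at 5.12 ± 2.09 CPM (SD, n = 3) at 24 h, and the signalling regulator RGS4 went from 16.3 ± 3.48 to 0.692 ± 0.435 CPM (log2 fold change -4.66 ± 0.50, edgeR adjusted p = 1.60e-08). GFPT2, an enzyme of hexosamine synthesis, went from 0.656 ± 0.165 to 33.2 ± 8.02 CPM (5.63 ± 0.34, edgeR adjusted p = 2.31e-14), and the muscle ubiquitin ligase FBXO32 from 1.02 ± 0.523 to 46.9 ± 6.25 CPM (5.61 ± 0.34, edgeR adjusted p = 2.76e-14). The keratin-associated protein gene KRTAP1-5 went the other way, from 5.70 ± 2.84 CPM to 0 in all 24 h libraries. BIVM-ERCC5, a read-through of neighbouring genes whose reads are shared with them, was at 0 in all 0 h libraries and at 9.18 ± 3.50 CPM at 24 h, and its count is uncertain.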
